A study of Mus musculus with 3 samples.

Results

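Prostaglandin E2 production, reception and removal were followed in mouse ovary through 8 genes: Ptgs1, Ptgs2, Ptges, Ptges3, Ptger2, Ptger4, Hpgd and Slco2a1. The genes were taken by name from the 24958 genes of a single-cell RNA-seq table of whole ovary, and all 8 were measured there. Ovaries were collected 0, 1 and 6 h after an injection of hCG, a gonadotropin that binds the LH receptor and starts ovulation, with 1 droplet-based (10x Genomics) library per time point. The study's methods describe ovaries of prepubertal mice primed with PMSG, a gonadotropin that makes follicles grow, without saying whether all 3 libraries were from such mice. No genetic alteration was named for the sampled mice, and neither the number of animals per library nor a replicate library was given. The table held 31776 cells, whose barcodes end in 1, 2 or 3, and these endings are called barcode sets 1 (10384 cells), 2 (9917 cells) and 3 (11475 cells). The library names in the labels also end in 1, 2 and 3, for 0, 1 and 6 h, but no source used here ties a barcode ending to a library, so the sets carry no time point below.

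Prostaglandin E2 is made in sequence: the cyclooxygenases Ptgs1 and Ptgs2 turn arachidonic acid into prostaglandin H2, and the synthases Ptges and Ptges3 convert that into prostaglandin E2. The receptors encoded by Ptger2 and Ptger4 couple to Gs and raise cyclic AMP in the receiving cell, while the transporter encoded by Slco2a1 takes prostaglandins up into cells and the dehydrogenase encoded by Hpgd oxidises them to inactive forms. In the ovary, Ptgs2 is a classical gene of the LH surge, and prostaglandin E2 acting through the Ptger2 receptor is known for its part in the expansion of the cumulus around the oocyte.

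The promoters of the 4 members that stood apart in granulosa-like cells of sets 2 or 3 are shown because the results below turn on them. Each window runs from 250 bases before to 50 bases after a RefSeq start site (build GRCm38.p6), printed 5′ to 3′ on the strand of the gene. Capitals mark matches, on either strand, to any of 9 motifs. For factors that answer cyclic AMP and growth signals these were the full cyclic AMP response element, written TGACGTCA, the end of that element, written CGTCA, and the AP-1 site, written TGANTCA. For general promoter factors they were the E-box, written CACGTG, the GC box, written GGGCGG, the CCAAT box, and the TATA box, written TATAAA. For steroid and orphan receptors they were a piece of the nuclear receptor site, written AGGTCA, and a piece of the progesterone response site, written TGTTCT. The end of the cyclic AMP response element also lies within its full form. Ptgs2 lies at chr1:150099781-150100080 (+), Ptger4 at chr15:5244138-5244437 (-), Ptgs1 at chr2:36230176-36230475 (+) and Slco2a1 at chr9:103008237-103008536 (+).
Ptgs2: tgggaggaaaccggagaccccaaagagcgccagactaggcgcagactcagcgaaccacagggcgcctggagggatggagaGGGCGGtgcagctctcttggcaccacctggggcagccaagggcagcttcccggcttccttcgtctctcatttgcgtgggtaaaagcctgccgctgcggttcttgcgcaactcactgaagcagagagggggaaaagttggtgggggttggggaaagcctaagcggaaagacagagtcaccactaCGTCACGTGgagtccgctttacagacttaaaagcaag
Ptger4: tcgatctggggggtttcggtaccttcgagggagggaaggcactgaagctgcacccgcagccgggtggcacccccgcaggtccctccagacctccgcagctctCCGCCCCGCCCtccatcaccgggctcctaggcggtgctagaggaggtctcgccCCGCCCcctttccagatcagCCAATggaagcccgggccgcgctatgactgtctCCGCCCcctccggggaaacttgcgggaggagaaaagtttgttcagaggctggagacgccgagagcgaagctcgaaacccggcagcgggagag
Ptgs1: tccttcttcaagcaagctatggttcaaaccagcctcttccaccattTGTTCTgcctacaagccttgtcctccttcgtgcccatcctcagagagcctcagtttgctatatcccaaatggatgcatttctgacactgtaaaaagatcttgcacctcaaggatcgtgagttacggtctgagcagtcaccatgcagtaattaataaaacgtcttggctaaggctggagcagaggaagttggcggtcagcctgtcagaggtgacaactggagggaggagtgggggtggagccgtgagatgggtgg
Slco2a1: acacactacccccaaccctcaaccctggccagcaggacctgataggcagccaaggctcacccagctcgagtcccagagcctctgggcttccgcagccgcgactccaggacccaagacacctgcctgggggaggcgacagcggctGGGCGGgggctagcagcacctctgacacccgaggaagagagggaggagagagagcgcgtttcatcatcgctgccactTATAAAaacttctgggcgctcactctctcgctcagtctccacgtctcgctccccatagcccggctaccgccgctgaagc

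Of the 4 windows, only that of Ptgs2 held the end of the cyclic AMP response element, at bases 14 to 18 counted with the start as base 1, where it shared 2 bases with an E-box at bases 17 to 22. Among the members whose windows are not shown, Ptges3 held this end too, at bases 12 to 16. Among the windows of 32851 promoters, 20.81% held CGTCA and 7.15% held CACGTG. The Ptgs2 window also held a GC box at bases -170 to -165, a motif found in 35.66% of promoters. Ptger4 held 4 GC boxes, the first pair sharing base -143, and a CCAAT at bases -75 to -71 (37.41% of promoters). Slco2a1 held a TATAAA at bases -29 to -24 (13.62% of promoters) and a GC box at bases -106 to -101, and Ptgs1 held only a TGTTCT at bases -204 to -199 (18.97% of promoters). No window of the 8 members held the full cyclic AMP response element (1.79% of promoters), TGANTCA (7.808%) or AGGTCA (16.26%). These matches describe letters in 1 window per gene and are not evidence of binding. The GC content was 67% for Ptger4, 64% for Slco2a1, 59.33% for Ptgs2 and 50.67% for Ptgs1, against a median of 52.67% over all promoters.

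In the GENCODE annotation of GRCm38, Ptger4 (chr15, 5206661 to 5244187) overlaps Ttc33 on the opposite strand, and Slco2a1 (chr9, 102988712 to 103096002) starts upstream of the RefSeq site used for its window. How the counting treated strand is not given in the sources used here, so reads of Ptger4 and Ttc33 may not be fully told apart. Ttc33 was lower in granulosa-like cells of set 2 (0.143) than of sets 1 (0.342) and 3 (0.349), whereas Ptger4 was higher there. The other genes of the table that overlap a member, Gm17173 at Ptger2 and Gm47468 at Slco2a1, held 15 and 4 UMIs in all.

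A level below is the mean over cells of a gene's UMIs (counted molecules) per 10000 UMIs of the cell. Intervals in brackets are 95% and cover counting error only. With 1 library per time point no test between sets is possible, and a difference between sets cannot be told apart from a difference between libraries or animals. The sets were close in depth, with a median of 6093, 6352 and 6524 UMIs per cell in sets 1, 2 and 3. Barcodes occurring in 2 sets took in 224 cells, and leaving those out changed none of the 5 counts of members recomputed without them. Cells were clustered within each set with the 8 members and the other prostaglandin and expansion genes left out, and the clusters were named from markers. Of 64 clusters, 21 were granulosa-like (4602, 4747 and 5067 cells in sets 1, 2 and 3). The other classes were stroma-like (9409 cells), theca-like (2611), endothelial-like (1615), smooth muscle and pericyte-like (1591), myeloid-like (426) and epithelial-like (20, all in set 2), and 1688 cells in 9 clusters stayed unnamed. The theca-like class of set 3 took in 65 cells led by Gm2a, with no theca marker among their leading genes, and most of those genes also led unnamed clusters of sets 1 and 2. A gate on single cells placed 52.7% of the granulosa-like cells in that class (65.1%, 50.3% and 43.7% in sets 1, 2 and 3). For smooth muscle and pericyte-like cells the share was 35.6% (49.2%, 26.0% and 37.0%). For theca-like, stroma-like, myeloid-like and endothelial-like cells the gate gave 75.6%, 82.7%, 83.1% and 91.8%. Ratios of granulosa-like to all other cells that this alternative moved by more than 1.5 times are given beside the result. Ratios between sets within a class were not recomputed with it.

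Over all cells, 4 of the 8 members were at least 2-fold higher in set 2 than in set 1, namely Ptgs2, Ptges, Ptger4 and Slco2a1, where 4.28% of 12384 genes with a level of at least 0.02 differed as much in that direction. Slco2a1 fell below 2-fold, leaving 3 of 8, from summed UMIs and in cells thinned to 3000 UMIs. Endothelial-like cells, which held most Slco2a1 UMIs of these sets, made up 4.50% of the cells of set 1 and 6.94% of set 2. Their Slco2a1 levels were 4.73 and 6.07, and the part of cell composition in the ratio over all cells was not tested. Between sets 2 and 3, 4 of the 8 were at least 2-fold lower in set 3, where 7.92% of genes were, and these were Ptgs2, Ptges, Ptger4 and Hpgd, the last of which was lost (3 of 8) from summed UMIs. Ptgs2, Ptges and Ptger4 thus had their highest level in set 2. No member was at least 2-fold lower in set 2 than in set 1 (0 of 8, with 6.9% of genes), and Ptgs1 alone was at least 2-fold higher in set 3 than in set 2 (1 of 8, with 9.14% of genes). Against set 1, set 3 was at least 2-fold higher for Ptgs1, Ptgs2 and Slco2a1 (3 of 8, with 5.58% of genes) and at least 2-fold lower for Hpgd alone (1 of 8, with 10.8% of genes). Ptger2 and Ptges3 passed 2-fold in no pair of sets over all cells.

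**Figure D1:**
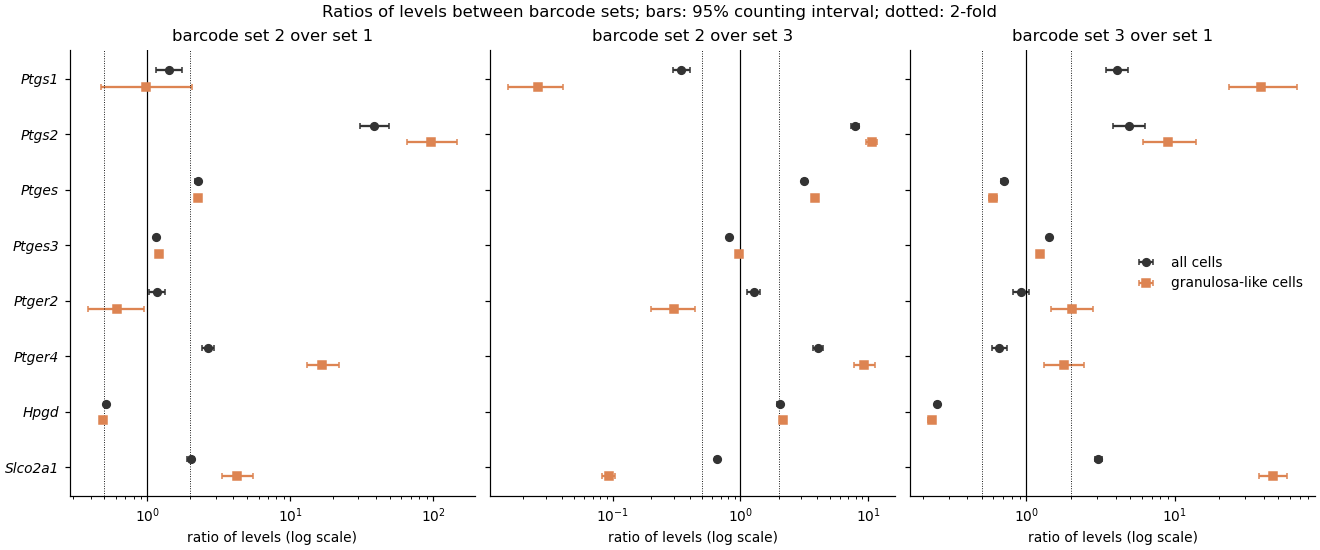
Ratios of the level of each member between barcode sets (log axis), over all cells and over granulosa-like cells, with 95% counting intervals as bars. In granulosa-like cells Ptgs2 stands 96.4-fold and Ptger4 16.7-fold higher in set 2 than in set 1, and Slco2a1 45.8-fold and Ptgs1 38.0-fold higher in set 3 than in set 1. The Ptgs2 value rests on 27 UMIs of set 1, 13 of them in the cluster led by Rnase1.

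Ptgs2, the inducible cyclooxygenase, had 74, 4440 and 718 UMIs in sets 1, 2 and 3. Its levels over all cells of the sets were, in that order, 0.0156 [0.0123 to 0.0196], 0.605 [0.587 to 0.623] and 0.0765 [0.0710 to 0.0823]. Ptgs2 was therefore lowest in set 1, highest in set 2 and in between in set 3, and no intervals overlapped. The ratio of set 2 to set 1 was 38.7 [30.7 to 49.4], but it rested on few molecules of set 1 and was 73.0 when cells under 2000 UMIs were left out. The ratio of set 2 to set 3 was 7.90 [7.30 to 8.56].

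Granulosa-like cells, the follicle cells that surround the oocyte, held 88.9% of the Ptgs2 UMIs of set 2 [87.9 to 89.8] while holding 50.3% of the UMIs of all genes. In set 1 their share of Ptgs2 was 36.5% [25.6 to 48.5], with 41.8% of the UMIs of all genes. The granulosa-like level of Ptgs2 was 0.0111 [0.00731 to 0.0161], 1.07 [1.04 to 1.10] and 0.10 [0.0917 to 0.110] in sets 1, 2 and 3. The ratio of set 2 to set 1 within granulosa-like cells was thus 96.4 [66.1 to 146]. Of cells thinned to 3000 UMIs each, 0.137%, 16.2% and 2.89% of the granulosa-like cells held a Ptgs2 UMI in sets 1, 2 and 3 (0.391%, 23.8% and 6.04% unthinned). In set 2, 3619 of the 4747 granulosa-like cells had no Ptgs2 UMI and 528 had 3 or more, up to 22 in a cell.

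Among the 8 granulosa-like clusters of set 2, the Ptgs2 level ran from 0.0492 in the cluster led by Kctd14 to 2.53 [2.37 to 2.71] in the cluster led by Gm45650 (398 cells), with a median of 0.722. The larger clusters led by Tnfsf11 (1197 cells) and Edn2 (1147 cells) stood at 1.51 and 1.25, and the mitotic cluster led by Ube2c at 1.49. The other mitotic cluster, led by Cdc20 (130 cells), had 0.130 [0.0858 to 0.189] and lay well below these, as did the clusters led by Mycl (0.102) and Rnase1 (0.195). The clusters led by Rnase1 in sets 1 and 2 were named from markers of atretic granulosa cells although their granulosa marker scores, 0.060 and 0.064, were under the limit of 0.2 set for other clusters. In set 3 the highest granulosa-like cluster was that led by Spp1 (259 cells), at 0.445 [0.372 to 0.528], and in set 1 that led by Rnase1, at 0.0622. Leading genes name clusters here and are no result.

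Among the other classes, myeloid-like cells had the highest Ptgs2 level in each set. Myeloid-like cells had the highest level of the 6 classes in set 1, at 0.275 [0.101 to 0.598] on 6 UMIs, and in set 3, at 0.850 [0.592 to 1.18], and their intervals lay above those of the next class. In set 2, myeloid-like (0.322) and theca-like cells (0.251) followed granulosa-like cells and did not differ from each other beyond counting error. Within the myeloid-like cells of set 3, the cluster led by S100a9 (96 cells) had a level of 1.25 [0.786 to 1.90] and the cluster led by C1qa (78 cells) 0.352 [0.187 to 0.602], which overlaps the levels of sets 1 and 2. The class held no cluster led by S100a9 in sets 1 and 2, so myeloid-like values of set 3 compare partly different cells. In set 2 a cluster led by S100a9 (23 cells) was left unnamed for low depth, so the myeloid-like value of that set does not take in its Ptgs2, which is given at the end. Endothelial-like cells, which should lack granulosa transcripts, had in set 2 4.60% of the granulosa-like level of Ptgs2, against 4.55% for the granulosa gene Inha and 5.65% for Amh, another granulosa gene, so no reading of that level is given. In theca-like cells of set 2 the value was 23.4% for Ptgs2, against 20.9% for Inha and 7.83% for Amh. In stroma-like cells it was 10.9% for Ptgs2, against 4.13% for Inha and 12.6% for Amh, so no reading as expression or background is given for these classes either.

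Stress genes known to respond to tissue dissociation were also compared between sets 2 and 1 in granulosa-like cells. Of 10 such genes, 3 were at least 2-fold higher in set 2, where 6.55% of all genes were, namely Atf3 (5.51-fold), Junb (3.81-fold) and Egr1 (2.20-fold), and the other 7 differed by 1.05-fold (Hspa1b) to 1.62-fold (Dnajb1), with Fos at 1.25-fold. Several of these are also early genes of gonadotropin action, and their part in the Ptgs2 difference was not tested.

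**Figure D2:**
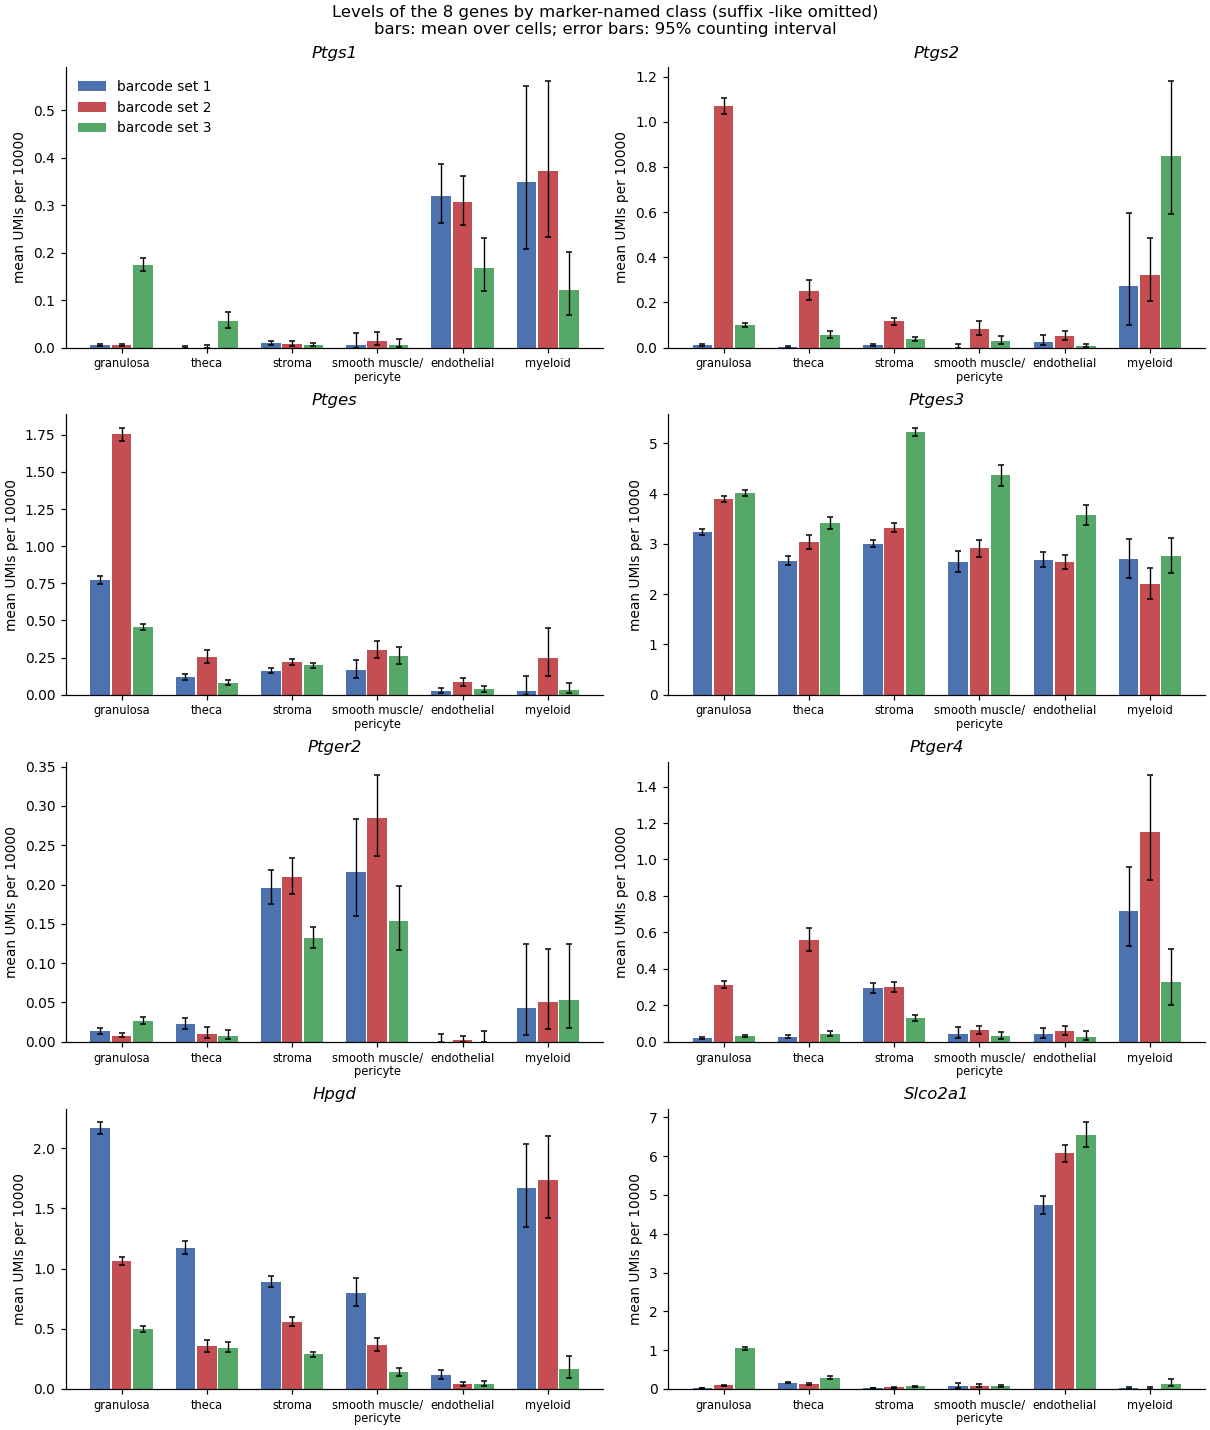
Level of each of the 8 members (UMIs per 10000 UMIs of a cell, linear axis) in the named cell classes, by barcode set, with 95% counting intervals. Ptgs2 in granulosa-like cells is near 0.0111 in set 1 and 1.07 in set 2, while Slco2a1 stays above 4.7 in endothelial-like cells of every set and reaches 1.04 in granulosa-like cells of set 3 only.

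Ptgs1, the cyclooxygenase usually described as constitutive, had 165, 213 and 798 UMIs in sets 1, 2 and 3, the fewest of the members over the whole table (1176). In sets 1 and 2 its levels were 0.319 and 0.306 in endothelial-like cells and 0.349 and 0.371 in myeloid-like cells, which did not differ beyond counting error. Granulosa-like cells had 16 and 18 UMIs there, levels of 0.00457 and 0.00448. In set 3 the granulosa-like level was 0.174 [0.161 to 0.188] on 666 UMIs, which overlapped the endothelial-like level of 0.168 [0.119 to 0.230]. The granulosa-like ratio of set 3 to set 1 was 38.0 [23.2 to 66.9], and granulosa-like cells held 9.70%, 8.45% and 83.5% of the Ptgs1 UMIs of sets 1, 2 and 3. Ptgs1 was thus an endothelial and myeloid transcript in sets 1 and 2 and mostly a granulosa-like one in set 3.

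The Ptgs1 of set 3 lay mainly in the granulosa-like cluster led by Npy (1930 cells), at 0.363 [0.331 to 0.398], and in the mitotic cluster led by Ube2c (581 cells), at 0.230 [0.195 to 0.269]. The other mitotic cluster, led by Hist1h1b (297 cells), had 0 Ptgs1 UMIs, which allows a level of at most 0.0103 by the upper limit. The cluster led by Kctd14 in the same set (895 cells) had 4 UMIs and a level of 0.00524. The ratio of granulosa-like to all other cells in set 3 was 5.35 [4.43 to 6.50] for Ptgs1 and 1.30 when classes came from the gate on single cells. In theca-like cells Ptgs1 had 0 UMIs in sets 1 and 2 and 48 UMIs in set 3, a level of 0.0560 beside 0.174 in granulosa-like cells. That lay above the 0.00569 of stroma-like and 0.00600 of smooth muscle and pericyte-like cells of the set. The granulosa gene Inha was also uneven over these classes of set 3. Theca-like cells had 29.2% of its granulosa-like level, stroma-like cells 2.79%, and smooth muscle and pericyte-like cells 3.45%. For Amh these classes had 10.3%, 5.26% and 10.0%. The source of Ptgs1 in theca-like cells was not tested, nor which cells of the class carried Ptgs1. Endothelial-like cells went the other way, with a ratio of set 3 to set 1 of 0.525 [0.353 to 0.767]. That class held the cluster led by Ctla2a alone in set 3 and further clusters in sets 1 and 2, and in the clusters led by Ctla2a the levels were 0.351, 0.375 and 0.168.

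Ptges, the inducible membrane-bound synthase of prostaglandin E2, had levels over all cells of 0.433, 0.976 and 0.307 in sets 1, 2 and 3. In granulosa-like cells they were 0.771 [0.743 to 0.80], 1.75 [1.71 to 1.80] and 0.457 [0.437 to 0.479]. Granulosa-like cells had the highest Ptges of the 6 classes in all 3 sets, with no overlap of intervals with the next class, and held 78.5%, 87.6% and 69.6% of its UMIs. The granulosa-like ratio was 2.27 [2.17 to 2.38] for set 2 against set 1 and 3.83 [3.64 to 4.04] for set 2 against set 3. Theca-like cells had a similar ratio of set 2 to set 1, 2.15, at a lower level (0.118, 0.255 and 0.0817). In set 2 that was 14.5% of the granulosa-like level, beside 7.83% for Amh and 20.9% for Inha. Inha was uneven over the classes of set 2, with 4.13% in stroma-like cells, so these values do not decide the source. The source of Ptges in theca-like cells was not tested.

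Ptges had a different distribution over granulosa-like clusters than Ptgs2 in set 2. The cluster led by Edn2 stood at 3.72 [3.58 to 3.87], above the next, led by Ube2c, at 1.56. The clusters led by Tnfsf11 and Gm45650, among the highest for Ptgs2, had Ptges at 0.993 and 1.43. In set 3 Ptges ran from 0.0870 in the cluster led by Npy to 1.31 in that led by Kctd14. In set 1 the clusters led by Inhbb and Slc18a2 were highest, at 1.40 and 1.32.

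Ptgs2 and Ptges met in single cells slightly more often than in the rest over all granulosa-like cells of set 2, and inside each of the 4 clusters examined the intervals overlapped. Among granulosa-like cells of set 2 thinned to 3000 UMIs, 33.1% [29.7 to 36.6] of the 747 cells with a Ptgs2 UMI also had a Ptges UMI, against 28.1% [26.7 to 29.6] of the rest. Inside the cluster led by Edn2 the shares were 53.8% [46.6 to 60.9] and 46.8% [43.5 to 50.1], and in the cluster led by Gm45650 23.6% and 23.9%. In set 3 the direction was the other one over all granulosa-like cells, with 5.67% [2.48 to 10.9] of the 141 cells with a Ptgs2 UMI and 11.3% [10.4 to 12.2] of the rest, and these intervals overlap. In set 2, cells with Ptgs2 had less Hpgd, 16.7% [14.1 to 19.6] against 24.2% [22.8 to 25.6] over all granulosa-like cells. Inside each of the 4 clusters the direction was the same, with overlapping intervals. The shares were 14.8% [10.6 to 19.8] and 17.0% [14.6 to 19.6] in that led by Tnfsf11 and 16.8% and 21.0% in that led by Edn2. They were 14.3% and 21.6% in that led by Gm45650 and 17.8% and 24.9% in that led by Ube2c.

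Ptges3, a cytosolic prostaglandin E synthase better known as the Hsp90 co-chaperone p23, was detected in every named class. Its levels over all cells were 3.05, 3.53 and 4.33 in sets 1, 2 and 3, a ratio of set 3 to set 1 of 1.42 [1.40 to 1.44]. The difference between sets was larger in stroma-like cells, with levels of 3.01, 3.32 and 5.23 and a ratio of set 3 to set 1 of 1.74 [1.69 to 1.79], than in granulosa-like cells, with levels of 3.24, 3.89 and 4.01 and a ratio of 1.24. Stroma-like cells lay below granulosa-like cells in sets 1 and 2 and above them in set 3, although the set 3 ratio of granulosa-like to all other cells, 0.873, turned to 1.03 with the gate on single cells. These 2 classes were made up of different clusters in each set. The granulosa-like cluster with the highest Ptges3 was a mitotic one in each set, at 5.08, 5.34 and 6.29 in sets 1, 2 and 3. Not every mitotic cluster stood high, since in set 3 the 6.29 was that of the cluster led by Hist1h1b (297 cells), while the other mitotic cluster, led by Ube2c (581 cells), had 4.35, below the cluster led by Kctd14 (5.03). The mitotic stroma-like clusters reached 5.03, 5.58 and 6.08.

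**Figure D3:**
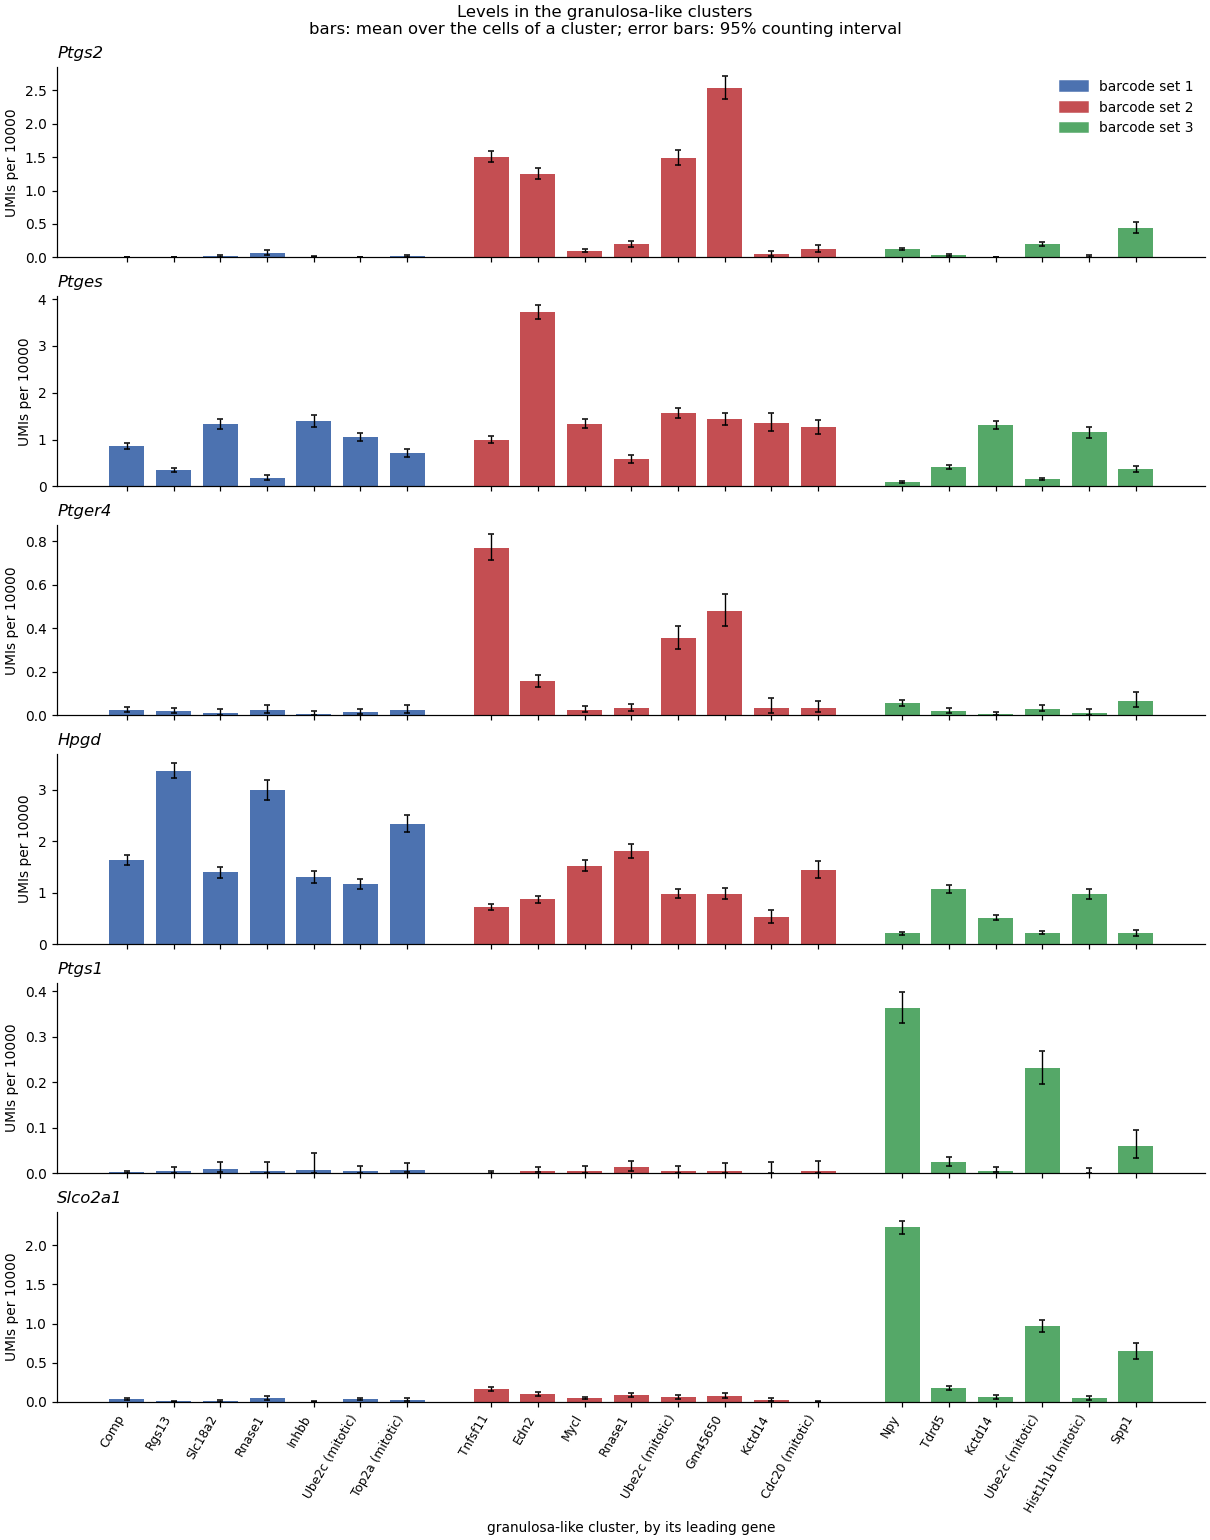
Level of Ptgs2, Ptges, Ptger4, Hpgd, Ptgs1 and Slco2a1 (UMIs per 10000 UMIs of a cell) in each granulosa-like cluster of barcode sets 1, 2 and 3, each cluster named by its leading gene. Ptges3 and Ptger2 are not drawn. In set 2 the cluster led by Gm45650 is highest for Ptgs2 (2.53) and that led by Edn2 for Ptges (3.72), and in set 3 the cluster led by Npy is highest for Ptgs1 (0.363) and Slco2a1 (2.23) and lowest for Ptges (0.0870).

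Of the receptors, Ptger4 differed more between sets than Ptger2. It had 616, 2080 and 562 UMIs and levels over all cells of 0.108, 0.285 and 0.0706 in sets 1, 2 and 3, a ratio of 2.65 [2.42 to 2.91] for set 2 against set 1. Granulosa-like cells had Ptger4 levels of 0.0187 on 64 UMIs, 0.313 [0.295 to 0.331] on 1152 UMIs and 0.0334 on 123 UMIs. Their share of Ptger4 UMIs was 10.4%, 55.4% and 21.9%. The granulosa-like ratio of set 2 to set 1 was 16.7 [13 to 21.9], and that of set 2 to set 3 was 9.36 [7.77 to 11.4].

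Theca-like cells, the androgen-producing layer around the follicle, showed the same order of Ptger4 levels, 0.0286, 0.557 [0.498 to 0.622] and 0.0441. In the clusters led by Cyp17a1 alone Ptger4 had 0.0211, 0.557 and 0.0482. The theca-like level in set 2 exceeded that of granulosa-like cells, and their ratio of set 2 to set 1 was 19.5 [14.3 to 26.9]. Stroma-like cells differed less: their levels were 0.294, 0.298 and 0.130, so the ratio of set 2 to set 1 was 1.01 [0.887 to 1.16] and only set 3 stood apart, in a class made up of different clusters in each set. Myeloid-like cells had the highest Ptger4 of the 6 classes in all 3 sets, at 0.717, 1.15 and 0.329. The myeloid gene Lyz2 reached at most 0.0533% of its myeloid-like level in granulosa-like cells, whereas Ptger4 reached 2.60%, 27.2% and 10.2% of its own in sets 1, 2 and 3. Stroma-like cells held 69.2%, 22.2% and 62.5% of the Ptger4 UMIs. Against their level, granulosa-like Ptger4 stood at 6.35%, 105% and 25.7%, and the stromal gene Dcn at 1.20%, 1.67% and 2.21%. The source of Ptger4 in granulosa-like cells was not tested.

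Within set 2, Ptger4 was highest among granulosa-like clusters in that led by Tnfsf11, at 0.771 [0.712 to 0.833], followed by those led by Gm45650 (0.479) and Ube2c (0.355). The cluster led by Edn2, the highest for Ptges, had 0.156 [0.129 to 0.187]. No granulosa-like cluster passed 0.0231 in set 1 or 0.0668 in set 3. In the cluster led by Tnfsf11, 17.6% [13.1 to 23] of cells with a Ptgs2 UMI and 17.1% [14.7 to 19.7] of cells without one had a Ptger4 UMI after thinning, and the intervals overlap.

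Ptger2, the receptor known from cumulus expansion, was mainly a transcript of stroma-like and of smooth muscle and pericyte-like cells in this table. Its levels over all cells were 0.0736, 0.0861 and 0.0676 in sets 1, 2 and 3, on 481, 527 and 589 UMIs. Stroma-like cells had 0.196, 0.210 and 0.132 and held 67.8%, 64.9% and 64.2% of its UMIs. Smooth muscle and pericyte-like cells had 0.215, 0.285 and 0.153, the highest level by class in each set, but above stroma-like cells beyond counting error only in set 2. In set 2 their cluster led by Actg2 had 0.376 [0.310 to 0.453] against 0.0725 [0.0348 to 0.133] in that led by Rgs5. Granulosa-like cells had 54, 34 and 126 UMIs, levels of 0.0132, 0.00801 and 0.0266, which were 0.108, 0.0508 and 0.266 times the level in all other cells. Endothelial-like cells had 0 Ptger2 UMIs in sets 1 and 3, levels of at most 0.00962 and 0.0134 by the upper 95% limit. Granulosa-like Ptger2 was 2.02-fold [1.46 to 2.83] higher in set 3 than in set 1, at a share of 0.759% of thinned cells. Over the granulosa-like clusters of set 3 its level ran from 0.00725 to 0.0584 [0.0340 to 0.0935]. The highest was the cluster led by Spp1, on 17 UMIs, which overlapped the next, led by Tdrd5, at 0.0521 [0.0368 to 0.0715].

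Hpgd, the dehydrogenase that inactivates prostaglandins, was highest in set 1 and lowest in set 3, with 10394, 5401 and 3198 UMIs in sets 1, 2 and 3. Over all cells its levels were 1.44, 0.738 and 0.362, and set 3 stood at 0.251 [0.241 to 0.261] of set 1. In granulosa-like cells they were 2.17 [2.12 to 2.22], 1.07 [1.03 to 1.10] and 0.497 [0.475 to 0.519]. Hpgd was detected in 40.6%, 23% and 11.6% of the granulosa-like cells after thinning. The same order was seen in stroma-like cells (0.892, 0.557 and 0.288) and in smooth muscle and pericyte-like cells (0.797, 0.366 and 0.139), while theca-like cells had 1.17 in set 1 but did not differ between sets 2 and 3 (0.355 and 0.344) beyond counting error. The theca-like class of set 1 was mixed, with 1.64 in its cluster led by Cyp17a1 and 0.242 in that led by Mgat4c, and the clusters led by Cyp17a1 in sets 2 and 3 had 0.355 and 0.374. Myeloid-like cells departed from it, with 1.67 and 1.74 in sets 1 and 2, a ratio of 1.04 [0.783 to 1.39], and 0.167 in set 3. The drop was also seen without the cluster led by S100a9, since the cluster led by C1qa in set 3 had 0.213 [0.110 to 0.372].

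The granulosa-like cluster with the most Hpgd was not the one with the most Ptgs2 in any set, although in set 1 the cluster led by Rnase1 was first for Ptgs2 and second for Hpgd. In set 1 Hpgd was highest in the clusters led by Rgs13 (3.38) and Rnase1 (2.99), in set 2 in that led by Rnase1 (1.81) and in set 3 in that led by Tdrd5 (1.06), where Ptgs2 was 0.0303. The clusters with the lowest Hpgd of set 3 were those led by Npy (0.210) and Spp1 (0.211). Endothelial-like cells had 5.16%, 3.72% and 7.88% of the granulosa-like level of Hpgd in sets 1, 2 and 3, against 3.95%, 4.55% and 4.11% for Inha and 7.74%, 5.65% and 9.35% for Amh. The Hpgd value of set 2, on 25 UMIs, lay below both genes, and those of sets 1 and 3 lay between Inha and Amh. The source of Hpgd in endothelial-like cells was not tested, so no reading as expression or background is given for any set.

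Slco2a1, the prostaglandin transporter, was mainly an endothelial transcript in sets 1 and 2, where endothelial-like cells held 78.1% and 83.9% of its UMIs. Endothelial-like levels were 4.73 [4.51 to 4.97], 6.07 [5.85 to 6.29] and 6.56 [6.25 to 6.88] in sets 1, 2 and 3, the highest of the 6 classes in each set. The cluster led by Ctla2a held most of it, at 5.20, 7.32 and 6.56. In set 2 the endothelial-like cluster led by Eln had 1.63 [1.37 to 1.93], and the cluster led by Ccl21a, a chemokine of lymphatic endothelium, had 2 UMIs in 29 cells. Theca-like cells had 0.161 [0.142 to 0.182], 0.120 and 0.294 in sets 1, 2 and 3, with 12.2%, 2.05% and 3.84% of the Slco2a1 UMIs. In set 1 their cluster led by Mgat4c had 0.411. Theca-like Slco2a1 was 3.40%, 1.98% and 4.48% of the endothelial-like level, beside 0.183%, 0.480% and 0.341% for the endothelial gene Pecam1. The source of Slco2a1 in theca-like cells was not tested.

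Granulosa-like cells had Slco2a1 levels of 0.0228 on 87 UMIs, 0.0971 on 325 UMIs and 1.04 [1.01 to 1.08] on 4088 UMIs in sets 1, 2 and 3. The ratio of set 3 to set 1 was 45.8 [37.0 to 57.3], and granulosa-like cells held 65.1% of the Slco2a1 UMIs of set 3. Their level was 0.482%, 1.60% and 15.9% of the endothelial-like one, while the endothelial gene Pecam1 stood at 0.345%, 0.478% and 0.290% of its own. The granulosa-like level in set 3 was 1.79 times [1.70 to 1.88] that of all other cells, but 0.788 times when classes came from the gate on single cells.

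As for Ptgs1, the cluster led by Npy had the highest Slco2a1 level in set 3, 2.23 [2.15 to 2.31], ahead of those led by Ube2c (0.968) and Spp1 (0.649), with 0.0623 in that led by Kctd14. Over all granulosa-like cells of set 3, 36.2% [29.3 to 43.5] of cells with a Ptgs1 UMI also had Slco2a1, against 18.3% [17.2 to 19.5] of the rest. Within the cluster led by Npy the shares were 37.4% [29.6 to 45.8] and 37.5% [35.2 to 39.8], so the difference over all granulosa-like cells was not seen inside that cluster.

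**Figure D4:**
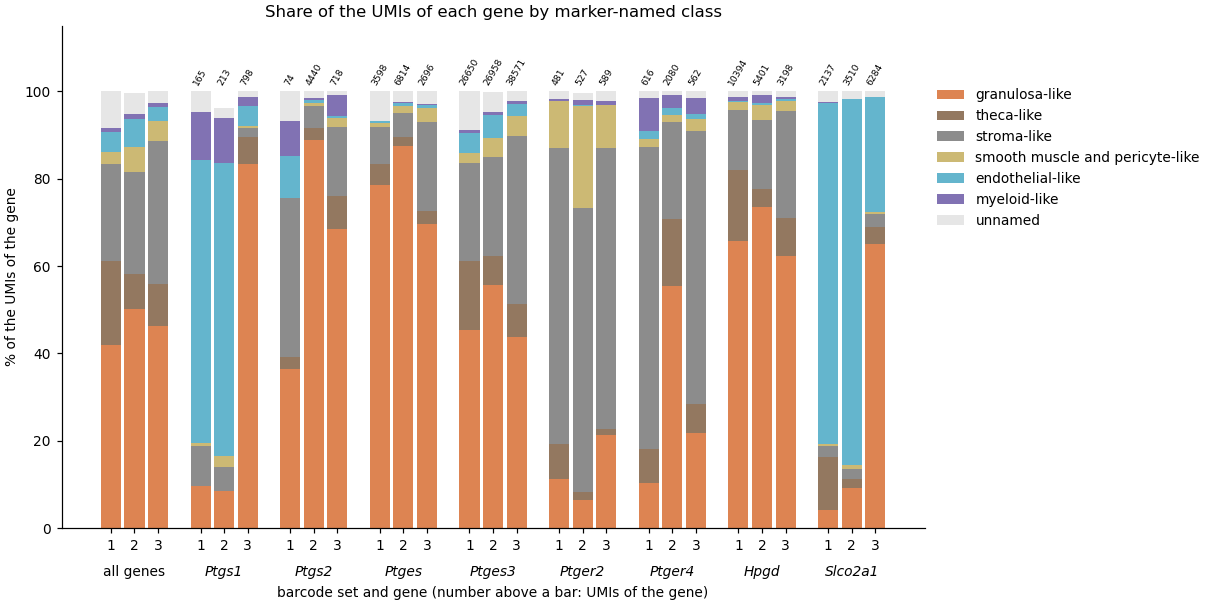
Share (%) of the UMIs of each member, and of all genes, that each cell class held in barcode sets 1, 2 and 3; the 20 epithelial-like cells of set 2 are left out, so some bars of that set stop short of 100%. Granulosa-like cells held 9.70% of the Ptgs1 and 4.07% of the Slco2a1 UMIs in set 1 and 83.5% and 65.1% in set 3.

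Set against all other cells, granulosa-like cells were at least 2-fold higher for Ptges and Hpgd in set 1 (2 of 8 members, where 8.48% of genes were). In set 2 this held for Ptgs2, Ptges and Hpgd (3 of 8, where 8.49% of genes were), and in set 3 for Ptgs1 and Ptges (2 of 8, where 11.5% of genes were). Hpgd was lost in sets 1 and 2 with the gate on single cells, at the finer clustering and with the clusters led by Rnase1 left unnamed (ratios of 1.96 and 1.62), and in set 3 that gate lost Ptgs1 and gained Hpgd. The count of set 3 was 4 of 8 from summed UMIs and in thinned cells, where Ptgs2 and Slco2a1 were gained. In the other direction, granulosa-like cells were at least 2-fold lower for Ptgs1, Ptger2, Ptger4 and Slco2a1 in set 1 (4 of 8, with 15.6% of genes), for Ptgs1, Ptger2 and Slco2a1 in set 2 (3 of 8, with 18.3% of genes) and for Ptger2 and Ptger4 in set 3 (2 of 8, with 13% of genes). Ptges was thus above 2-fold in all 3 sets, at 4.69, 6.67 and 2.42, although the value of set 2 was 2.89 with the gate on single cells. Ptgs2 in set 2 stood at 6.01 [5.48 to 6.62], and at 3.97 with that gate. Between sets within granulosa-like cells, 4 of 8 members were at least 2-fold higher in set 2 than in set 1 (Ptgs2, Ptges, Ptger4 and Slco2a1, where 6.55% of genes were) and 4 of 8 at least 2-fold lower in set 3 than in set 2 (Ptgs2, Ptges, Ptger4 and Hpgd, where 8.24% of genes were). In the opposite directions, Hpgd alone was lower in set 2 than in set 1 (1 of 8, with 16.1% of genes), and Ptgs1, Ptger2 and Slco2a1 were higher in set 3 than in set 2 (3 of 8, with 17.4% of genes). Against set 1, set 3 was higher for Ptgs1, Ptgs2, Ptger2 and Slco2a1 (4 of 8, with 9.08% of genes) and lower for Hpgd (1 of 8, with 11.8% of genes). Granulosa-like cells made up 44.3%, 47.9% and 44.2% of the cells of sets 1, 2 and 3.

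Of 19 other genes of prostaglandin metabolism and reception, 14 had a level of at least 0.02 over the table. Over all cells, 2 of the 14 were at least 2-fold higher in set 2 than in set 1, against 4.28% of all genes. Ptgfr, the receptor of prostaglandin F2α, had levels of 0.212, 0.920 and 0.0943 in sets 1, 2 and 3, and within granulosa-like cells 0.0727, 1.57 and 0.109, a ratio of set 2 to set 1 of 21.6 [19.0 to 24.6]. Within granulosa-like cells its order over the sets was that of Ptgs2 and Ptger4. Akr1b3, an aldose reductase with prostaglandin F synthase activity, had 2.07, 5.18 and 9.26, and was highest in theca-like cells of set 3, at 21.2. In the other direction, 2 of the 14 were at least 2-fold lower in set 2, against 6.9% of all genes. Ptgds, the lipocalin-type prostaglandin D synthase, had 0.108, 0.0444 and 0.0231, and Ptgr2, a prostaglandin reductase, had 0.245, 0.111 and 0.146.

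Against set 2, set 3 was at least 2-fold lower for 1 of the 14, Ptgfr (7.92% of all genes), and higher for 3, Ptges2, Akr1c18 and Ptger3 (9.14% of all genes). Against set 1, it was at least 2-fold higher for 2, Akr1b3 and Akr1c18 (5.58% of all genes), and lower for 2, Ptgds and Ptgfr (10.8% of all genes). With 14 genes, 1 gene more or less moves such a count far against these shares, and nothing is read from it about the list. Akr1c18, which inactivates progesterone, had 0.0504, 0.0382 and 0.147. Upstream of the cyclooxygenases, Pla2g4a, the phospholipase that releases arachidonic acid, had 0.391, 0.364 and 0.592, and 0.833 in granulosa-like cells of set 3. Ptgis, the prostacyclin synthase, had 0.696, 0.856 and 0.954.

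The genes Has2, Ptx3 and Tnfaip6, which build the matrix of the expanding cumulus and lie downstream of prostaglandin E2, were compared in granulosa-like cells. Tnfaip6 had levels of 0.00950, 6.62 and 1.93 in sets 1, 2 and 3, the same order as Ptgs2. Ptx3 had 0.00435, 0.444 and 0.812, and Has2 0.00296, 0.0889 and 0.0515, so Ptx3 alone was higher in set 3 than in set 2. Of thinned cells with a Ptgs2 UMI, 67.5% had Tnfaip6 in set 2, against 43.7% of the rest, but within the cluster led by Edn2 the shares were 53.3% [46.1 to 60.4] and 52.1% [48.8 to 55.4]. In the mitotic cluster led by Ube2c they were 83.1% [75 to 89.3] and 67.6% [61.9 to 72.9], which do not overlap.

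The genes most like each member in their pattern were found by Pearson correlation over 18 means, 6 classes in each of 3 sets, among 8686 genes. These points share libraries and neighbouring classes, so the values are a description. Ptgs2 was most like Csrnp1 (0.887), Ppp1r15b (0.850) and Ezr (0.848), and Ptger4 most like Rnaset2a (0.829) and Zeb2os (0.822). Slco2a1 was most like Adgrf5 (0.945) and Gask1b (0.938), Ptgs1 most like Ostf1 (0.948) and Casp8 (0.925), and Ptger2 most like Mrvi1 (0.957) and the stromal factor Tcf21 (0.954). Ptges3 was most like Cct6a (0.958), a subunit of the chaperonin that folds cytosolic proteins, with Cct3 (0.920) also among its nearest 5. Ptges was most like Pspc1 (0.910) and Hpgd most like Fam234a (0.853). Among the members themselves, the highest value was 0.713 for Ptgs2 with Ptger4 and the lowest was -0.761 for Hpgd with Slco2a1.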

How the data were processed

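Whole-ovary libraries (10x Genomics) were measured at 0, 1 and 6 h after hCG, 1 library each. The deposited table holds, for each gene and cell, the natural log of 1 plus UMIs per 10000 UMIs of the cell. The submitters' processing notes name Cell Ranger, Seurat and mm10, without versions. UMIs were worked back from the log values, and 100% of 80167176 values were whole within 0.01 UMI. Totals were 81367055, 72906577 and 85756955 UMIs in barcode sets 1, 2 and 3, and the lowest cell had 500. All cells were kept. No doublet caller was run, and 3108 cells held markers of 2 classes.

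Cells of each set were clustered on 2000 variable genes without the members, other prostaglandin and expansion genes (30 principal components, 15 neighbours, resolution 1; Python 3.11.15, numpy 2.4.6, scipy 1.17.1, scikit-learn 1.9.0, igraph 0.11.9, matplotlib 3.10.9). A cluster was named from at least 3 detected markers of its class (5 for granulosa), and the naming limits were adjusted after clusters, but not members, were seen. By the fixed marker lists of the classes, no named cluster had more markers of another class than of its own among its 10 leading genes, but several had none of either and were named from detected markers. Among these were the theca-like clusters led by Mgat4c and Gm2a, the mitotic stroma-like ones, and the granulosa-like ones led by Rgs13, Npy, Edn2 and Tnfsf11. Other clusters needed a marker score of at least 0.2, but those led by Rnase1 (sets 1 and 2) were named granulosa-like from atretic granulosa markers at 0.060 and 0.064. Different clusters made up most classes in each set, the stroma-like and endothelial-like ones included, and no cluster was named luteal, oocyte, lymphoid or erythroid. The members and gene lists were chosen with earlier results of these data known.

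With 1 library per group no test was run. Levels have exact Poisson intervals of the summed UMIs, and ratios exact binomial intervals conditional on their sum. Shares have Clopper-Pearson intervals. All are 95% and for counting error only. Only the ratio intervals were checked on simulated data. These data were Poisson totals of genes, so means over cells and uneven counts between cells were not simulated. Genes at a level of at least 0.02 over the table formed the background of 2-fold differences. Shares of cells with a UMI were taken after thinning each cell to 3000 UMIs, leaving out shallower cells. The text names the members, the listed prostaglandin genes with a 2-fold difference or the highest level of their kind, the expansion genes, and the genes most like each member, by correlation of log2(level + 0.05). Clusters are named by their leading gene. The 10 stress genes are a list for dissociation. Alternatives changed the level (summed UMIs), the cell filter, the abundant genes, the thinning, the class naming, the resolution, the unnamed cells, the doublets and the fold threshold; leaving out cells with a barcode found in 2 sets, and leaving the Rnase1-led clusters unnamed, were chosen after seeing the data. Promoter windows are RefSeq GRCm38.p6.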

Additional observations from a re-analysis of the deposited data

Results flagged for a closer look

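For 5 members the ratio of the level in granulosa-like cells to that in all other cells crossed 1 between barcode sets. The difference between the sets was not tested, since each set is 1 library. Ptgs1 stood at 0.120 in set 1, 0.0762 in set 2 and 5.35 in set 3, the last of which was 1.30 when classes came from a gate on single cells. Ptgs2 stood at 0.577, 6.01 and 1.74 in sets 1, 2 and 3. The value of set 1 rests on 27 against 47 UMIs, and the granulosa-like share of Ptgs2 UMIs there, 36.5% [25.6 to 48.5], took in their 41.8% of the UMIs of all genes, so by summed UMIs it did not differ from 1 beyond counting error, while it was 0.128 at the finer clustering and 0.183 with the clusters led by Rnase1 left unnamed. Ptges3 stood at 1.12, 1.22 and 0.873, and its value in set 3 turned to 1.03 with that gate. Ptger4 stood at 0.105, 1.20 and 0.334, the value of set 2 being 1.01 without cells that held markers of 2 classes and without the top 5% of cells by UMIs. Slco2a1 stood at 0.0514, 0.108 and 1.79, and its value in set 3 turned to 0.788 with the gate.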

How the results depend on the processing

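The ratio of Ptgs2 over all cells between sets 2 and 1, 38.7 as reported, was 67.0 from summed UMIs, 73.0 in cells of at least 2000 UMIs and 68.9 in cells thinned to 3000 UMIs; set 1 had 74 Ptgs2 UMIs. The ratio between sets 2 and 3, 7.90 as reported, was 7.27 from summed UMIs. Ptgs2 in granulosa-like against all other cells of set 2, 6.01 as reported, was 7.89 from summed UMIs, 8.76 in cells of at least 2000 UMIs, 8.34 in thinned cells, 3.97 with the gate on single cells, 7.13 at resolution 2, 8.73 without unnamed cells and 6.69 with the Rnase1-led clusters left unnamed. At a 3-fold threshold 1 member, Ptgs2, was higher in set 2 than in set 1, against 4 as reported, and 3 were (Slco2a1 was lost) from summed UMIs and in thinned cells. Those lower in set 3 than in set 2 were 3, against 4 (Hpgd was lost), from summed UMIs and at a 3-fold threshold. The members at least 2-fold higher in granulosa-like cells were 1 in set 1 with the gate, at resolution 2 and with the Rnase1-led clusters unnamed (2 as reported; Hpgd was lost), 2 in set 2 with the same settings (3 as reported; Hpgd was lost), and 4 in set 3 from summed UMIs and in thinned cells (2 as reported; Ptgs2 and Slco2a1 were gained); set 3 had 3 in cells of at least 2000 UMIs (Ptgs2 was gained), without cells of 2 classes and the top 5% by UMIs (Hpgd was gained) and at resolution 2 (Slco2a1 was gained), and with the gate it kept a count of 2 but lost Ptgs1 and gained Hpgd. In set 3 the ratio turned from 0.873 to 1.03 for Ptges3 and from 1.79 to 0.788 for Slco2a1 with the gate. The cause of these moves was not tested. Of 240 alternative values of the 24 ratios of a member in a set, 166 lay inside the counting interval, 72 outside it in the same direction, and 2 turned. No paired analysis was possible because each group is 1 library, and for the same reason no replicate could be left out. Depth limits the values that rest on few UMIs, such as Ptgs1 in granulosa-like cells of sets 1 and 2 and Ptger2 in granulosa-like cells.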

Other observations

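An unnamed cluster of set 2 led by S100a9 (23 cells) had a Ptgs2 level of 3.26 [1.73 to 5.57] on 13 UMIs, beside the 1.25 [0.786 to 1.90] of the cluster led by S100a9 in set 3, which was named myeloid-like. The 20 epithelial-like cells of set 2 held 8 Ptgs1 UMIs, a level of 0.421. Some other prostaglandin genes had their highest level by class in myeloid-like or endothelial-like cells. Tbxas1, the thromboxane synthase, reached 1.05 in myeloid-like cells of set 1, and Hpgds, the haematopoietic prostaglandin D synthase, 0.788 in those of set 2. Abcc4, an efflux pump that carries prostaglandins out of cells, reached 0.675 in endothelial-like cells of set 1, Tbxa2r, the thromboxane receptor, 0.537 in those of set 3, and Ptgis 2.27 in those of set 2.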
